A study of Homo sapiens with 6 samples.

Results

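Long cassette exons are internal exons of over 250 bases that some transcripts of a gene hold and others skip. They were taken from the deposited isoform models wherever another isoform of the same gene joined the same flanking splice sites directly, using the pair of flanks with most reads. Inclusion is the percentage of reads with the exon among reads with or skipping it, here called informative reads. Of 658 such exons, 273 exons in 225 genes had at least 10 informative reads in each of the 6 libraries. They stand beside 7541 cassette exons of any length that met the same minimum, of 12126 in all.

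The libraries are full-length cDNA of HBEC3kt, an immortalised line of human bronchial epithelial cells, read by nanopore sequencing. Wild-type cells and cells with the S34F mutation of U2AF1 gave 3 libraries each. The titles mark the libraries of replicates 1 and 2, which come from isolates 1 and 2, as B1, while replicate 3 repeats isolate 2 under the mark B2. Each genotype thus rests on 2 isolates, and the labels say neither how these were made nor what B1 and B2 mean. P-values therefore measure only the spread between these libraries, part of which may be technical. The main test of exons took that spread as shared among all exons, not from each exon alone.

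U2AF1 is the small subunit of U2AF, the factor that recognises the end of an intron, and it contacts the AG at the 3′ splice site. S34F replaces a serine with phenylalanine, and the base before the AG is known to bear on how mutant cells use a site. Most internal human exons are short, and pairing of splice sites across the exon works less well over long ones. Some cassette exons, called poison exons, bring in an early stop codon, and transcripts that hold them are degraded by nonsense-mediated decay. Genes of SR proteins, which promote splicing, are known for such exons.

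The 3′ splice sites below belong to the exons on which the comparison turns, with 20 intron bases and 10 exon bases each. Capitals mark the base before the AG and the AG itself. They were read from GENCODE transcripts and carry GRCh38 positions, whereas exon positions elsewhere in the text are in hg19, the build of the deposited models. The first 4 belong to the exons called different between genotypes.
SRSF3, 456-base exon (chr6:36599801-36599830, plus strand): aaaaatgaaccccgttaCAGagtcaccatc
RWDD2B, 363-base exon (chr21:29008114-29008143, minus strand): tcttgtatcttttctatTAGatcagtatta
MTIF3, 461-base exon (chr13:27440440-27440469, minus strand): tcttcttactactttctTAGgatggctgct
ATP5MK, 287-base exon (chr10:103396023-103396052, minus strand): tttcttctgtatgtccaTAGctgtttgttc
TMEM18, 481-base exon (chr2:676229-676258, minus strand): gagccagacactgtcccCAGgtacagcagg
ARL14EP, 489-base exon (chr11:30330866-30330895, plus strand): ctctttaatattttctcTAGggtgatcagc
FN1, 267-base exon (chr2:215372366-215372395, minus strand): ctctaacctctctcggcTAGacgagcttcc
FN1, 270-base exon (chr2:215381071-215381100, minus strand): accattaatttgcctaaCAGacattgatcg
FN1, 273-base exon (chr2:215393194-215393223, minus strand): tttgctttgtaactcaaTAGaggtgcccca
RPL10A, 339-base exon (chr6:35468927-35468956, plus strand): acccccctcctctctcgAAGgttcctggag
A T precedes the AG in RWDD2B, MTIF3, ATP5MK, ARL14EP and the FN1 exons of 267 and 273 bases, a C in SRSF3, TMEM18 and the FN1 exon of 270 bases, and an A in RPL10A.

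In exons of 3 SR protein genes the reading frame of a GENCODE transcript of the nonsense-mediated decay type ends inside the exon. The stretch from the exon's first base to that stop codon, in capitals, is shown for each.
SRSF3, 456-base exon (chr6:36599821-36599854, plus strand): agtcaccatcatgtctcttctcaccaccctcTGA
SRSF7, 449-base exon (chr2:38749319-38749346, minus strand): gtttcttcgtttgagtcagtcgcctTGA
TRA2B, 276-base exon (chr3:185931772-185931852, minus strand): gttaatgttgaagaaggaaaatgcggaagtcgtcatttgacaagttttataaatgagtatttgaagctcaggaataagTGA
The frame thus ran for 31 bases in SRSF3, 25 in SRSF7 and 78 in TRA2B before the stop.

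Library totals ranged from 1286512 to 1720292 reads in wild-type and from 451540 to 1014868 in S34F cells. The long exons had 91989 to 143688 informative reads per wild-type library and 37206 to 61325 per S34F library, with medians per exon of 83 to 126 and of 32 to 60 reads. A share of 5 in 10 reads has an exact 95% binomial interval of 18.7% to 81.3%, which covers counting error only, since PCR copies are not independent molecules. The shallowest library held 10 to 19 reads for 96 of the 273 exons. The epithelial keratin genes KRT14 and KRT19 were abundant, with 16746 and 27409 reads in all. Among the other epithelial genes listed, KRT18, KRT6A, KRT5, ITGB4 and KRT8 had 11678, 4398, 4123, 1923 and 1782. Fewer fell on ITGA6 (434), KRT17 (227), TP63 (129) and EPCAM (47). PTPRC and CD3E (blood), COL1A1, COL1A2 and PDGFRB (fibroblast), PECAM1 and VWF (endothelium) and SCGB1A1, MUC5AC and FOXJ1 (secretory and ciliated cells) had no reads. CD14 had 15, and VIM, which cultured epithelial cells also express, had 1193. The cadherin gene CDH1 had 913 and 1623 reads in the B2 libraries and 27 to 87 in the B1 libraries.

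Long cassette exons were skipped more often than shorter ones in both genotypes. Their median inclusion was 57.0%, against 94.3% for 6144 exons of 61 to 250 bases and 93.5% for 1124 exons of up to 60 bases. Inclusion was under 10% for 29.3% of long exons and over 90% for 29.7%, whereas 61.1% of exons of 61 to 250 bases lay over 90%. Summed over exons, long exons lay below those of 61 to 250 bases in each of the 6 libraries, by 23.4 to 29.8 percentage points. Exons in a gene share reads, so no test across exons was made. The length classes also differed in how many of their exons were annotated, as given below, and the part of this in the gap was not tested.

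**Figure D1:**
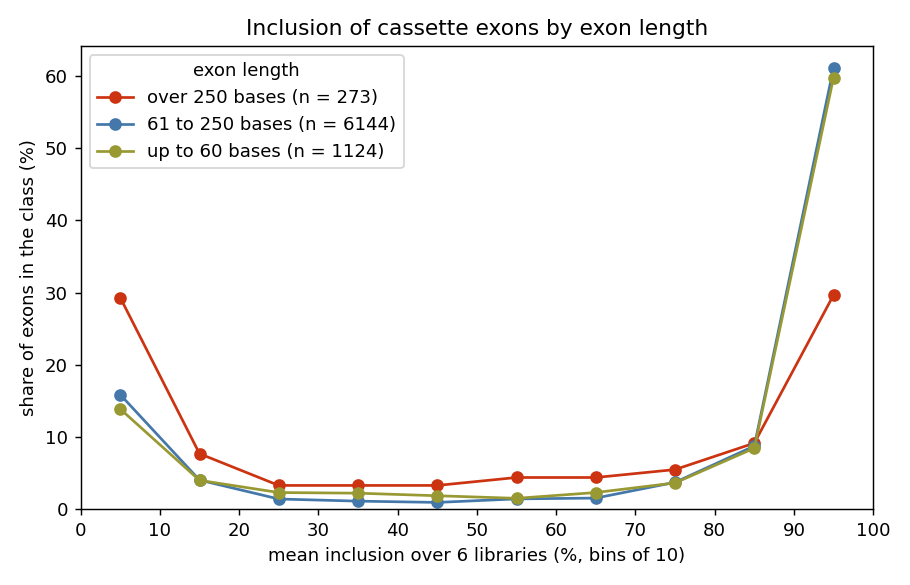
Distribution of mean inclusion over the 6 libraries in bins of 10 percentage points (horizontal axis, %) as the share of exons of each length class (vertical axis, %). Exons over 250 bases put 29.3% of their number in the lowest bin and 29.7% in the highest, whereas exons of 61 to 250 bases put 61.1% in the highest.

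The median long exon had 339 bases and the longest, in MISP, had 1837. It was the second exon of its isoform in 50.5% of cases, against 24.98% of exons of 61 to 250 bases, and kept the reading frame in 35.5%, against 42.8%. An isoform with an annotated transcript ID held 53.5% of long exons and 78.6% of exons of 61 to 250 bases. The 146 long exons held by such an isoform had a median inclusion of 87.8%, and the other 127 had 15.3%. Among exons that are coding throughout in a GENCODE transcript, the medians lay closer. They were 92.5% for 69 long exons and 96.6% for 4628 exons of all lengths.

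For 39 of the long exons (14.3%), another isoform of the gene removed an intron from inside the exon, against 0.130% of exons of 61 to 250 bases. SAT1, which encodes the spermidine/spermine acetyltransferase of polyamine breakdown, gives the clearest case, with an exon of 1630 bases that holds 9 introns of other isoforms. An exon must be long enough to hold an intron, so this contrast depends on the length by which the exons were chosen. The share was 3.85% for long exons of up to 300 bases and 11.9% for those of over 300 and up to 500. It was 45.5% for those of over 500 and up to 1000 bases and 33.3% above that. Only 5 of the 39 exons were held by an isoform with an annotated ID, against 141 of the other 234. A span of this kind is exon in some isoforms and holds an intron in others, so its inclusion counts reads that kept that intron. Reads of isoforms that removed the intron were in neither count, so inclusion here is not a share of all transcripts.

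Called differences between genotypes were few, and all were lower inclusion in S34F cells. The test, edgeR's quasi-likelihood model on reads with and without the exon, called 4 of the 273 exons at a Benjamini-Hochberg adjusted p of 0.05, in SRSF3, RWDD2B, MTIF3 and ATP5MK. Over cassette exons of all lengths it called 0.888%, and 0.756% as lower. An unadjusted p under 0.05 was reached by 26 long exons, 17 lower and 9 higher, or 9.52% against 9.32% of all tested exons. The libraries of the genotypes did not overlap for 37 long exons, against 15.2% of all tested exons. Of these, 28 were lower in S34F cells (10.3% of long exons, against 8.23% of all) and 9 higher (3.30% against 6.98%). Limma on log odds called none of the 273, with 22 at an unadjusted p under 0.05, and DESeq2 called 1. The edgeR fit shared a single trended spread among all exons. An exon's own spread between libraries thus did not enter its edgeR p-value or standard error, whereas limma took it in part. The count of 4 became 2 on leaving out wild-type replicate 2, 1 on leaving out either genotype's replicate 3, and 1 with the B1 libraries alone.

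**Figure D2:**
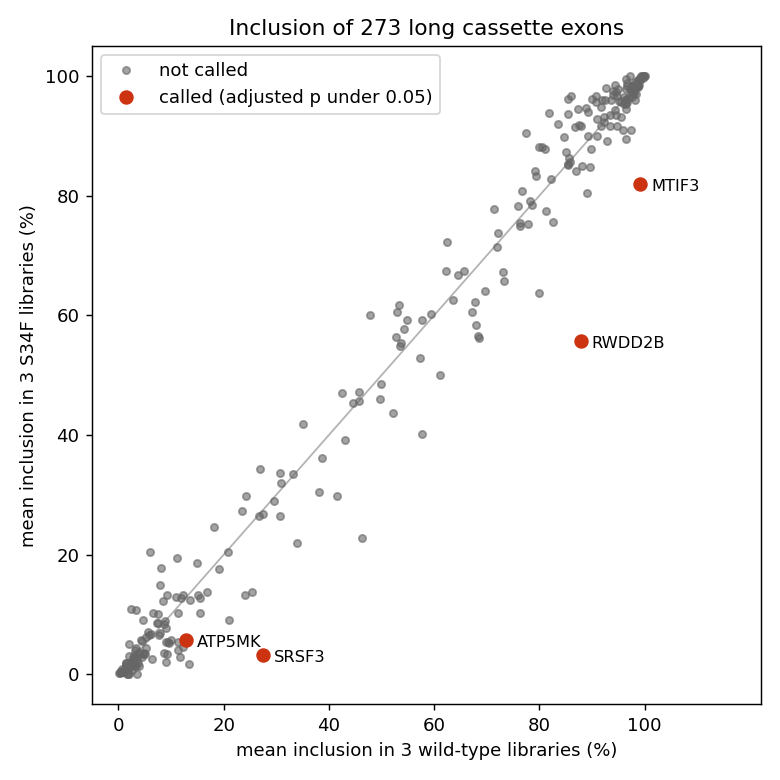
Mean inclusion of each of the 273 long cassette exons in the 3 wild-type (horizontal axis, %) and 3 S34F libraries (vertical axis, %). The line marks equal inclusion, and the 4 called exons, in red, lie below it.

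SRSF3 (ENSG00000112081.12) encodes the smallest classical SR protein, which acts in splicing and RNA export. Its exon of 456 bases (chromosome 6, 36567598 to 36568053, hg19) is the poison exon of the gene. It was held by 68 of 391, 78 of 265 and 121 of 342 informative reads in wild-type replicates 1, 2 and 3. In S34F replicates 1, 2 and 3 it was held by 2 of 120, 8 of 193 and 11 of 283. Every wild-type library lay above every S34F library. Mean inclusion was 27.4% ± 9.17 in wild-type and 3.23% ± 1.36 in S34F cells (SD, n = 3 each), a log2 odds ratio of -3.45 with a standard error of 0.35 (edgeR adjusted p = 1.47e-19). The difference was -20.5 percentage points within the B1 libraries and -31.5 within the B2 libraries. This exon was called with each alternative run except limma, where its log2 odds ratio of -3.41 had an adjusted p of 0.450. Reads of the whole gene stood at 267 ± 10.3 CPM in the wild type (reads per 1000000, with TMM-scaled totals) against 337 ± 123 CPM in the mutant, which was not called different (edgeR adjusted p = 0.647).

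RWDD2B (ENSG00000156253.2), which encodes a protein with an RWD domain, holds a frame-keeping exon of 363 bases (chromosome 21, 30380082 to 30380444) that is coding throughout. It was held by 27 of 28, 21 of 27 and 259 of 290 reads in the wild-type and by 7 of 15, 7 of 10 and 59 of 117 reads in the S34F libraries. The S34F libraries all lay below the wild-type ones, at 46.7%, 70% and 50.4% against 77.8% to 96.4%. Mean inclusion was 87.8% ± 9.41 and 55.7% ± 12.5 (SD, n = 3), a log2 odds ratio of -2.87 (edgeR adjusted p = 8.51e-07). The B2 libraries carried most of the reads. Leaving out replicate 3 gave an adjusted p of 0.438 (wild type) or 0.434 (S34F), with B1 libraries only it was 0.434, with DESeq2 it was 1.00 and with limma 0.450.

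MTIF3 (ENSG00000122033.10) encodes an initiation factor of mitochondrial translation. Its exon of 461 bases (chromosome 13, 28014126 to 28014586) holds 460 coding bases and so nearly all of it is translated. It was held by 78 of 80, 66 of 66 and 48 of 48 reads in wild-type cells and by 20 of 27, 21 of 24 and 16 of 19 reads in S34F cells. Skipping was thus read 2 times in wild-type libraries and in every S34F library. Mean inclusion was 99.2% ± 1.44 and 81.9% ± 6.998 (SD, n = 3), with a log2 odds ratio of -4.18 that rests on these few skipping reads (edgeR adjusted p = 0.00257). Leaving out wild-type replicate 2 or 3 gave adjusted p values of 0.0764 and 0.0779, and leaving out S34F replicate 1 or 3 gave 0.199 and 0.0764. With B1 libraries only it was 0.0793, with libraries thinned to equal depth 0.170, with DESeq2 0.599 and with limma 0.450.

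ATP5MK (ENSG00000173915.8), which encodes a small membrane subunit of mitochondrial ATP synthase, has an exon of 287 bases in its 5′ untranslated region (chromosome 10, 105155503 to 105155789). It was held by 66 of 723, 94 of 625 and 55 of 391 reads in wild-type and by 9 of 124, 7 of 142 and 14 of 282 reads in S34F cells. Wild-type values ran from 9.13% to 15.04% and S34F values from 4.93% to 7.26%, close to each other but without overlap. Mean inclusion was 12.7% ± 3.17 and 5.72% ± 1.33 (SD, n = 3), a log2 odds ratio of -1.31 (edgeR adjusted p = 0.0236). It was not called without the B1/B2 term (adjusted p 0.123), nor without wild-type replicates 2 or 3 (0.133 and 0.536) or S34F replicates 2 or 3 (0.105 and 0.542). With the libraries of isolate 2 summed the adjusted p was 0.226, with all isoforms that hold or span the exon 0.127, at equal depth 0.334 and with B1 libraries only 0.539. With the replicate number as a block in place of the B1/B2 term it was 0.0804, with limma 0.533 and with DESeq2 1.00.

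**Figure D3:**
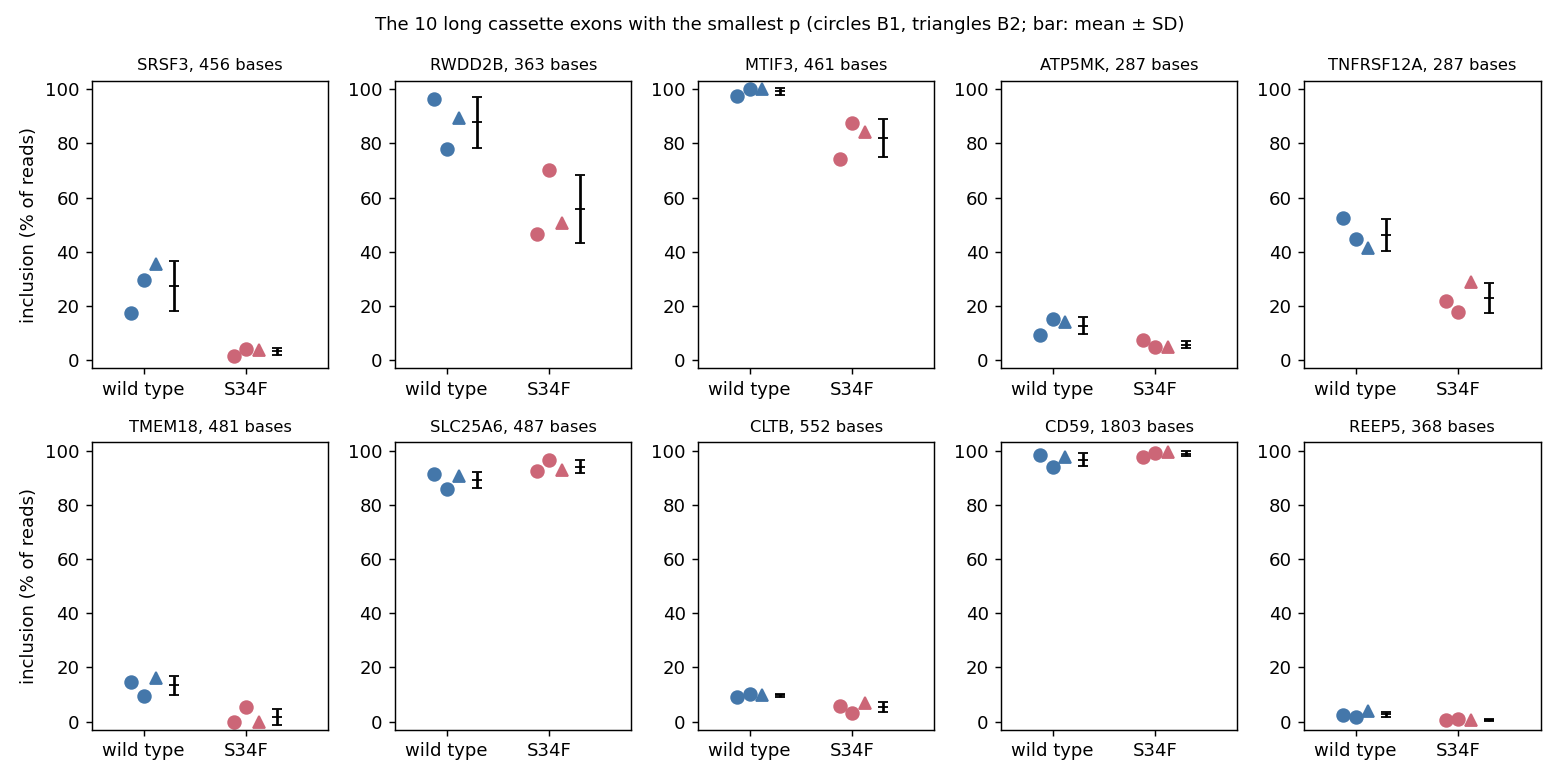
Inclusion (% of informative reads, vertical axes) in each wild-type (blue) and S34F (red) library for the 10 long cassette exons with the smallest p. Circles are B1 libraries, triangles B2 libraries, and bars the mean ± SD of 3 libraries. All but SLC25A6 and CD59 have a lower mean in S34F cells.

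The 6 exons next in order of p did not pass the threshold. TNFRSF12A, the receptor of the cytokine TWEAK, had an exon of 287 bases at 52.6%, 44.9% and 41.2% in wild-type and 21.7%, 17.9% and 28.99% in S34F libraries (edgeR adjusted p = 0.0758). Its groups did not overlap, and the gene itself fell, with 3135 ± 543 CPM in wild-type cells and 1194 ± 179 CPM in mutant cells (edgeR adjusted p = 0.0363, log2 fold change -1.39). That call was lost in 6 of the alternatives below, among them leaving out any wild-type replicate. TMEM18, a membrane protein gene, had an exon of 481 bases at 14.7%, 9.38% and 15.9% against 0%, 5.26% and 0% (adjusted p = 0.107). The zeros are 0 of 26 and 0 of 34 reads. CLTB, which encodes a light chain of clathrin, had an exon of 552 bases at 9.06% to 10.02% in wild-type and 3.23% to 6.98% in S34F libraries. REEP5, a gene of endoplasmic reticulum shaping, had one of 368 bases at 1.72% to 3.72% and 0.455% to 1.01%.

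On the higher side stood SLC25A6, which encodes a mitochondrial ADP/ATP carrier, and CD59, an inhibitor of complement. The SLC25A6 exon of 487 bases was at 91.3%, 85.8% and 90.7% in wild-type and 92.6%, 96.7% and 92.7% in S34F libraries (adjusted p = 0.114). The gene has close paralogues, between which reads may be shared. The CD59 exon of 1803 bases was at 94.0% to 98.4% and 97.7% to 99.5%, which overlap (adjusted p = 0.121). It was called only when wild-type replicate 1 was left out (adjusted p = 0.0181).

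Among exons whose libraries did not overlap, the largest differences towards higher inclusion were in C22orf39, MISP, THAP4, BCL2L12 and ACTB, and none was called. C22orf39 (379 bases) stood at 6.02% ± 1.51 in wild-type and 20.5% ± 5.71 in S34F libraries, on 15 to 69 reads per library. MISP, an actin-binding gene of spindle positioning, stood at 77.5% ± 2.76 and 90.4% ± 9.13 on 11 to 46 reads. The 1163-base exon of THAP4 stood at 85.4% ± 1.52 and 96.2% ± 6.66, and that of BCL2L12 at 85.9% ± 7.46 and 96.6% ± 0.829. The largest towards lower inclusion were those of RWDD2B, SRSF3, TNFRSF12A, MTIF3 and RPL10A. RPL10A, a ribosomal protein gene with close copies elsewhere, had 50 of 66, 63 of 83 and 51 of 58 reads with its 339-base exon in wild-type and 17 of 28, 10 of 14 and 10 of 17 in S34F libraries (adjusted p = 0.450).

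The base before the AG could be read for 51 long exons, those in which an annotated transcript runs through the end of the intron. With T before the AG, 11 of 13 exons were lower in S34F cells and 3 were called, RWDD2B, MTIF3 and ATP5MK. With C, 19 of 33 were lower and 1 was called, SRSF3, and with A, 3 of 5 were lower and none was called. Over all lengths, 294 of 527 exons with T were lower (13 called), as were 593 of 1359 with C (13 called, 7 of them lower). Exons with A leaned the other way over all lengths, with 31 of 99 lower and 68 higher, and the 1 called was higher. The median difference was -3.20 percentage points for long exons with T and -0.13 for long exons with C. It was -0.13 and 0.15 for T and C over all lengths. Percentage points are not alike across these sets, since median inclusion was 71.8% for long exons with T and 96.1% over all lengths. The median log2 odds ratio was -0.458 for long exons with T and -0.134 for T over all lengths. For exons with C it was -0.033 and 0.095.

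Among the other exons with T, ARL14EP (489 bases) stood at 69.7%, 62.2% and 73.7% in wild-type and 46.7%, 62.5% and 59.3% in S34F libraries, which overlap. WDR54 (256 bases) stood at 67.2% to 69.2% and 50% to 66.7%, with at most 32 reads in an S34F library. EGLN2, a prolyl hydroxylase gene of oxygen sensing, went the other way in its 1077-base exon, with means of 90.8% ± 7.44 and 95.6% ± 4.44. LGALS3BP and BCS1L had differences in mean inclusion of -0.061 and -0.261 percentage points.

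Summed over the 13 exons with T, inclusion was 56.5% ± 5.86 in wild-type and 53.0% ± 4.04 in S34F libraries (SD, n = 3; exact permutation test, two-sided, p = 0.6, where 3 against 3 cannot go below 0.10). The sum is dominated by FN1, and the difference of -3.50 percentage points was -1.04 with B1 libraries alone. Leaving out wild-type replicate 2 or 3 gave -5.86 and -0.219, and leaving out S34F replicate 2 gave -1.20. For exons with C or A the difference was -0.775 (exact p = 0.9). Taken apart, the 33 exons with C differed by 0.928 (exact p = 0.6) and the 5 with A by -11.2 percentage points (exact p = 0.2), a larger difference in this sum than that of exons with T. A mean giving each exon equal weight was added after seeing the data. By it, exons with T went from 69.6% ± 2.16 to 62.8% ± 2.15 without overlap (exact p = 0.1). Exons with C differed by -1.03 percentage points (exact p = 0.2) and those with A by -0.743 (exact p = 0.7). The gap between exons with T and with C differed between genotypes by -5.70 percentage points (exact p = 0.1). RWDD2B, MTIF3 and ATP5MK are part of the mean for exons with T.

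**Figure D4:**
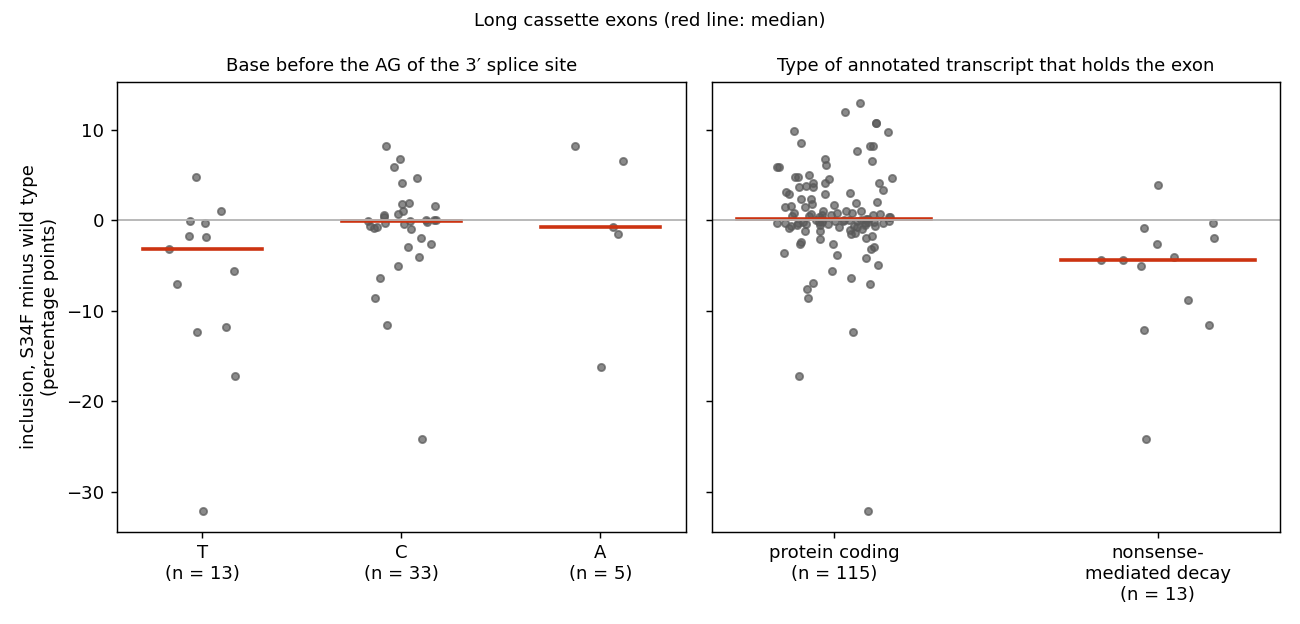
Difference in mean inclusion, S34F minus wild type (percentage points, vertical axis), for long cassette exons by base before the AG (left) and by type of GENCODE transcript that holds the exon (right). Each point is an exon and red lines are medians, which lie at -3.20 for T and -4.36 for the nonsense-mediated decay type.

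Exons held by a GENCODE transcript of the nonsense-mediated decay type, and by no matched protein-coding one, were mostly skipped and mostly lower in S34F cells. There were 13, in 12 genes, with a median inclusion of 7.46%. Inclusion was lower in S34F cells for 12 and 1 was called, SRSF3. Over all lengths 109 of 164 exons of that type were lower and 7 called. Of the 9 long exons held by noncoding transcripts (processed transcripts and retained introns), 8 were lower as well and none was called. Over all lengths, 68 of 129 exons held by noncoding transcripts of any type were lower and 5 called, 4 of them lower. Mean inclusion of the 13 went from 13.5% ± 2.30 to 7.66% ± 0.693 without overlap (exact permutation p = 0.1, the smallest possible). Without SRSF3 the difference of -5.87 percentage points was -4.35. The 115 exons held by a protein-coding transcript stood at 76.5% ± 1.09 and 77.1% ± 1.21 (exact p = 0.6). This grouping was chosen with the values known.

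MAGOHB, which encodes a core protein of the exon junction complex, a mark read by nonsense-mediated decay, has 2 of the 13 exons. That of 339 bases had 7 of 76, 7 of 60 and 11 of 78 reads in wild-type and 0 of 23, 1 of 26 and 3 of 62 in S34F libraries (adjusted p = 0.377). That of 286 bases stood at 1.23% to 15.5% and 0% to 7.41%, which overlap. SUB1, a transcription coactivator gene, MRM2, a mitochondrial RNA methyltransferase gene, and SMIM7 had differences of -0.875, -2.63 and -0.330 percentage points. TIMM8B, a gene of mitochondrial protein import, had 333-base exon values of 24.8% to 36.7% and 24.5% to 29.98%. RNF7, a subunit gene of ubiquitin ligases, was the single one higher, at 9.27% ± 2.05 and 13.2% ± 7.90.

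Of 26 SR and SR-like genes listed, 11 had tested cassette exons, 30 in all, and 2 of these were called, both lower, in SRSF3 and in RBM39 (73 bases), where 0.756% of all tested exons were called lower. The 3 long ones were in SRSF3, SRSF7 and TRA2B. In SRSF7 the exon was held by 5 of 109, 9 of 82 and 10 of 80 reads in wild-type and by 1 of 22, 4 of 35 and 0 of 57 in S34F libraries. The genotypes overlapped, and the fitted direction turned on leaving out replicate 3 of either genotype. In TRA2B, which encodes a splicing activator, the values were 30%, 53.6% and 18.4% against 33.3%, 6.67% and 25.7%, a wide spread in both genotypes. The fitted direction of TRA2B turned without S34F replicate 2. The list of hnRNP and other RNA-binding proteins had 88 tested exons with 1 called (against 0.888% of all tested exons), and none of its 6 long exons was. HNRNPC, whose protein binds uridine tracts, had a 519-base exon at 6.52% ± 1.17 and 10.3% ± 3.31. RBM3, a cold-inducible RNA-binding protein gene, had one of 269 bases at 15.2% ± 5.88 and 13.3% ± 3.35.

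The matrix, adhesion and cytoskeleton list had 91 tested exons, 9 of them long and none called. FN1, which encodes the matrix protein fibronectin, holds 4. The exon of 270 bases (chromosome 2, 216245534 to 216245803), known as extra domain A, was held by 63.6% ± 1.20 of wild-type and 62.6% ± 4.52 of S34F reads. Extra domain B, of 273 bases (216257654 to 216257926), was at 28.96%, 29.8% and 33.9% in wild-type and 29.8%, 29.9% and 36.1% in S34F libraries. These values overlapped between the genotypes. The 267-base exon of the variable region was at 71.2%, 63.9% and 73.7% against 60.99%, 62.5% and 68.4% (adjusted p = 0.701). An overlapping exon that is 4 bases shorter was at 19.1% ± 4.31 and 17.6% ± 3.85.

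LAMB3 encodes a chain of laminin 332, and PDLIM7 a cytoskeletal adaptor. The 639-base LAMB3 exon, which holds introns of other isoforms, stood at 53.2% ± 4.07 and 61.8% ± 8.87, and the 823-base PDLIM7 exon at 97.6% ± 0.604 and 98.2% ± 3.04. The chromatin and zinc-finger lists, with 11 and 15 tested exons and none called, had no long exon. Long noncoding genes had 80 tested exons with 4 called, against 0.888% of all tested exons, 3 of them lower and none long. MIR205HG had an exon of 1401 bases at 20.8% to 36.6% and 25.9% to 46.2%, and ENSG00000265257 one of 342 bases at 0.527% ± 0.114 and 0.541% ± 0.467.

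The 5 exons with most reads were in ACTB, GAPDH and ANXA2. The 439-base ACTB exon, on 42758 reads, was at 97.6% ± 1.35 and 98.2% ± 1.08, and the 413-base GAPDH exon, on 31026 reads, at 99.90% ± 0.048 and 99.94% ± 0.029. The ANXA2 exon of 403 bases was at 3.21% ± 0.135 and 2.87% ± 0.306, and that of 428 bases, which overlaps it, at 2.70% ± 0.192 and 2.78% ± 0.490. The 716-base ACTB exon was at 53.0% ± 1.49 and 60.5% ± 7.65, with adjusted p = 0.747. ACTB and GAPDH have many close copies in the genome, so reads of these exons are uncertain.

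The 5 longest exons were in MISP, CD59, SAT1, YTHDF2 and SPECC1. YTHDF2, a reader of methylated adenosine in mRNA, had an exon of 1584 bases at 62.4% ± 9.55 and 72.2% ± 12.4, and SPECC1 one of 1580 bases at 53.4% ± 6.78 and 54.9% ± 15.1. The 1630-base SAT1 exon stood at 97.5% ± 1.92 and 98.3% ± 1.698. Exons of up to 300 bases were lower in S34F cells in 65 of 104 cases and those of over 300 and up to 500 bases in 60 of 118, against 49.1% of tested exons of all lengths. Those of over 500 and up to 1000 bases were higher in 22 of 33 and those of over 1000 bases in 12 of 18, with median differences of 0.75 and 1.78 percentage points. Of the 33 exons, 15 hold an intron of another isoform, as do 6 of the 18. Just inside the length threshold stood SQOR (251 bases, 97.4% and 97.8%), COPS7B (252 bases, 1.85% and 0%) and RHNO1 (252 bases, 81.0% and 87.8%). Just outside, at 250 bases, stood PSMC5 (27.3% and 19.8%), CHCHD2 (97.7% and 98.7%) and SSR3 (4.90% and 4.32%).

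As a class, long exons lay on both sides of 0 in their differences. Mean inclusion was lower in S34F cells for 142 and higher for 131. Summed over the 273 exons it was 50.9% ± 2.68 in wild-type and 50.9% ± 4.06 in S34F libraries (SD, n = 3; exact permutation p = 1). This sum gives exons with many reads more weight. With equal weight, the mean over exons differed by -0.375 percentage points (exact p = 0.5) and the median by -1.30 (exact p = 0.5). The gap between long exons and those of 61 to 250 bases differed between genotypes by -0.954 percentage points (exact p = 0.7).

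The level of the host genes is a readout that the choice of exons did not use, apart from the minimum of reads. Of the 225 genes, 11 were called different in level by edgeR (4.89%), against 3.24% of all 7033 genes tested. PTMA, the gene of prothymosin alpha, rose from 830 ± 157 to 2346 ± 580 CPM, and GLUL, which encodes glutamine synthetase, rose from 141 ± 95.7 to 545 ± 388 CPM. TRIB3, a pseudokinase gene of the stress response, fell from 1397 ± 590 to 135 ± 44.6 CPM (edgeR adjusted p = 0.000197, log2 fold change -3.27). SERPINB10 fell from 694 ± 249.8 to 69.4 ± 43.3 CPM, LAMB3 from 2175 ± 239.8 to 841 ± 169.5 CPM, and SERPINB1 from 206 ± 61.9 to 51.9 ± 8.17 CPM. ASB1, ATG101, RAB38, TEAD4 and TNFRSF12A fell as well. None of these 11 genes held a called long exon, and RWDD2B, MTIF3 and ATP5MK were not called in level (adjusted p 0.653, 0.935 and 0.460). The count of 11 became 0 without the B1/B2 term, where 17 had an unadjusted p under 0.05, and it was 4, 4 and 5 without wild-type replicates 1, 2 and 3 and 20, 25 and 5 without S34F replicates 1, 2 and 3.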

How the data were processed

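The authors' deposited count table holds raw counts of long reads per isoform for 3 wild-type and 3 U2AF1 S34F libraries, and a deposited set of 63289 isoform models, named for FLAIR, gives exon positions. Per the submitters' processing notes the models are in hg19; the sources used here name no aligner, counter, version or filter. Cassette exons were built from the exon chains, 65 models without counts left out, and the members and gene lists were chosen with earlier results of these data known. Reads with and without each exon were tested with edgeR 4.0.16 (quasi-likelihood, R 4.3.3) in a model with library terms and a term for B1/B2, which leaves 3 residual degrees of freedom. The spread used for each exon came from the trend over all exons. P-values were adjusted by Benjamini-Hochberg over all 7541 cassette exons that had 10 or more informative reads per library, and exons were called at 0.05. Gene counts were tested with edgeR, TMM scaling and filterByExpr by genotype, also with the B1/B2 term. The filter's settings were a minimum count of 10, which it scales to library size, and a total of 15. Per-library shares were compared by exact two-sided permutation. Limma 3.58.1 (log odds, offset 0.5), DESeq2 1.42.0, other read minimums, all isoforms that hold or span the exon, equal depth and left-out libraries were alternatives. The edgeR test of exons was also run on simulated counts, whose spread was set in advance and not taken from the data.

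GENCODE transcripts (GRCh38) were matched by transcript ID, exon number and lengths, for 137 of the 273 exons. They gave transcript type, coding part and, where another transcript covers the intron's end, the base before the AG, for 51. No genome of the build was used. Exons named are those called, the 10 with the smallest p, the 5 largest rises and 5 largest falls without overlap, the 5 longest, the 5 with most reads, the 3 nearest the length threshold on each side, and up to 4 per gene list. Others were chosen after their values were seen, and a few items are not reported here.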

Additional observations from a re-analysis of the deposited data

How the results depend on the processing

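The number of called long exons was 4. It was 3 without the B1/B2 term, with the replicate block, with all isoforms that hold or span the exon and with the libraries of isolate 2 summed, and 4 with no minimum per library. It was 0 with limma, 1 with DESeq2, 2 with at least 20 reads in every library, 1 with B1 libraries only, 1 at equal depth, and 1 to 5 when 1 library was left out. Same-numbered libraries of the genotypes deviated together with correlations of 0.020, 0.013 and 0.209, the last between the B2 libraries. Within B1, differently numbered libraries had higher values, 0.108 and 0.076, so the number did not pair these. Between B1 and B2 libraries all correlations were negative, from -0.137 to -0.090. The correlations of each library nearly cancel, so these negative values and the 0.209 are not separate observations. With the replicate block the number of called host genes was 7 in place of 11. It was 0 without the B1/B2 term and 4 to 25 with a library left out. Over all lengths limma called 0 of 7541 exons and edgeR 67.

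The difference in summed inclusion of long exons, -0.019 percentage points, was 1.81 with all isoforms that hold or span the exon. It was 1.35 without exons that hold an inner intron, 0.012 with B1 libraries only and -1.69 to 2.24 with a library left out. In place of the sum, the median over exons gave -1.30 and the mean -0.375. The difference between long exons and those of 61 to 250 bases ran from -2.20 to 0.972 with a library left out, that of exons with C or A before the AG from -3.44 to 1.38, and that of exons with T from -5.86 to -0.219.

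Each named exon was compared under each alternative, and the counts here are of such pairs, not of exons. In them, 26 log2 odds ratios changed sign, 26 lost and 1 gained a call, and 520 kept both. All 26 lost calls were those of SRSF3, RWDD2B, MTIF3 and ATP5MK, the only exons with a call to lose. Most of the 520 come from exons that were never called. None of those that changed sign was called. With limma, COPS7B was at 0.0064. With B1 libraries only, SRSF7 was at 0.27, RBM3 at 0.28, SPECC1 at -0.24, ENSG00000265257 at 0.44, SQOR at 0.42 and the 428-base ANXA2 exon at -0.052. At equal depth, SAT1 (1630 bases) was at -1.35 and ENSG00000265257 at 0.073. With a library left out, values ran from -2.95 to 0.27 for SRSF7, -1.55 to 0.19 for TRA2B, -0.65 to 0.28 for RBM3, -0.24 to 0.59 for SPECC1, -1.03 to 0.44 for ENSG00000265257, -0.68 to 0.43 for SQOR, and -0.052 to 0.091 and -0.18 to 0.13 for the ANXA2 exons of 428 and 277 bases. The cause was not tested. At gene level, log2 fold changes ran from -0.034 to 0.57 for SRSF3 and from -0.25 to 0.054 for MTIF3 with a library left out, and neither was called. With 10 reads in the shallowest library, only large differences in inclusion lie outside counting error.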
